A study of Mus musculus with 8 samples.

Results

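Bidirectional protein-coding promoters are the stretches of DNA from which 2 protein-coding genes are read in opposite directions, away from each other. They were taken here as pairs of genes of the GENCODE vM1 annotation of the mouse genome (build mm9) on opposite strands of chromosomes 1 to 19, with outermost annotated start sites at most 1000 bases apart, and each region ran from 500 bases before the first start site to 500 bases after the second. The rule gave 789 regions with 1562 genes, which is 7.29% of the 21418 protein-coding genes of these chromosomes. The start sites of the other 19856 genes, each with 500 bases to either side, formed the comparison class. Of the 1562 genes, 16 belonged to 2 pairs, and 6 regions had the same start sites as another because genes of the annotation share a start. Neighbouring regions overlapped in 16 cases, and 30 to 32 called regions of a library shared their strongest peak with another region, so that the regions are not all independent.

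The libraries were made by ATAC-seq, in which the transposase Tn5 inserts sequencing adapters into open chromatin, so that promoters that are free of nucleosomes collect many reads. The mice were of the strain C57BL/6J, wild type and 6 weeks old, and their marrow mesenchymal cells were sorted for Sca-1 and PDGFRα, with CD31, CD45 and TER119 excluded, and divided by further marker genes into 7 populations. There were 7 libraries, ATAC1 to ATAC7, with 1 library per title and a common Input as the control. The labels do not tell which population a title stands for or how many mice a library comes from, and no library carried a treatment or a changed allele. A bulk library cannot tell a promoter that is open in fewer cells from one that is less open in each.

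Bidirectional promoters are common in mammalian genomes and are known for housekeeping genes, in particular those of DNA repair, DNA replication and mitochondria. Most lie in CpG islands and lack a TATA box, and both genes share a nucleosome-depleted stretch in which separate transcription complexes form back to back. Factors of the ETS family such as GABPA, as well as NRF1, YY1 and NF-Y, are known to bind many of them.

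The stretches between the start sites of 8 pairs are shown as examples of pairs that are named below. Brca1/Nbr1, Mrps12/Sars2 and Wrap53/Trp53 are pairs known from textbooks that had a peak in all 7 libraries. Cdca2/Kctd9 and Aasdhppt/Kbtbd3 were among the 5 pairs with most reads and Zfp661/Mrps5 among the 5 with fewest of those with a peak in all 7 libraries, whereas Col4a4/Col4a3 and Sec24a/Sar1b had a peak in none. Each lies upstream of both genes, is read 5′ to 3′ on the plus strand of mm9, leaves out both start sites, and has the gene named first to its left on the minus strand and the gene named second to its right on the plus strand. Capitals mark matches, on either strand, to any of 10 promoter motifs whose letters are given with the motif results, and all matches in these stretches were to the NF-Y motif, which reads ATTGG on this strand in each, or to the Sp1 motif, which reads GGGCGG in Mrps12/Sars2 and Aasdhppt/Kbtbd3 and is found on the other strand in Zfp661/Mrps5.
Brca1/Nbr1, chr11:101413270-101413462: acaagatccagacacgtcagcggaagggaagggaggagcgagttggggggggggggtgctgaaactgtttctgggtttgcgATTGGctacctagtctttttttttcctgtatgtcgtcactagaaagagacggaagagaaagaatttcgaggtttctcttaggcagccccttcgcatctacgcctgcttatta
Mrps12/Sars2, chr7:29526840-29527009: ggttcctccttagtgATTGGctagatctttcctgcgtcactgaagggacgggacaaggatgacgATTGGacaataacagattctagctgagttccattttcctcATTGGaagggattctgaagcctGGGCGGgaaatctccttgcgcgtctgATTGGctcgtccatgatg
Wrap53/Trp53, chr11:69393758-69393860: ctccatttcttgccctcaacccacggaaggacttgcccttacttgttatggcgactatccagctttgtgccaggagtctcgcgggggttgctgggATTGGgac
Cdca2/Kctd9, chr14:68333899-68333993: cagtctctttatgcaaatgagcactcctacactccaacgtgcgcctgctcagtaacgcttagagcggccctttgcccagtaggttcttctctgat
Aasdhppt/Kbtbd3, chr9:4309495-4309742: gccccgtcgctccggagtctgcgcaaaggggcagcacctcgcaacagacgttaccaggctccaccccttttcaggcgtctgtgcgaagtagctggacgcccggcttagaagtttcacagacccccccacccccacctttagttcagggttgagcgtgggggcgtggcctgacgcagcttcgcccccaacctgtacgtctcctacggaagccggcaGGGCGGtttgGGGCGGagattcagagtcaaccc
Zfp661/Mrps5, chr2:127412831-127412957: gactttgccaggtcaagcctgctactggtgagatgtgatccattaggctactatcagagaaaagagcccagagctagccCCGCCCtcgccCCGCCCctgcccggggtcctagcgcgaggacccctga
Col4a4/Col4a3, chr1:82583425-82583495: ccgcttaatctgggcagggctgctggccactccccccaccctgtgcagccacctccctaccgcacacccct
Sec24a/Sar1b, chr11:51577137-51577188: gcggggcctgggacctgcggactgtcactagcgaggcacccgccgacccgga

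The distance between the start sites ran from 1 to 987 bases, with a median of 141 and quartiles of 73 and 271. In 622 regions it was at most 300 bases. The regions were therefore 1002 to 1988 bases long, with a median of 1142, against 1001 bases for the windows of the other start sites.

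The peak lists held 15188 (ATAC7) to 32280 (ATAC2) peaks with 3437628 (ATAC7) to 8766021 (ATAC5) library reads in them, and the number of all mapped reads was not given in the sources used here. ATAC3, ATAC4 and ATAC7 had the 3 shortest lists. Of the marker genes fixed for the check of the cell type, the start sites of Pdgfra, Ly6a, Lepr, Col1a1, Prrx1 and Thy1 had a peak in no library, Pdgfrb had one in 5 libraries and Cxcl12 in 2. Of haematopoietic markers Ptprc, which codes for CD45, had a peak in 4 libraries and Itgam and Cd3e in none. The endothelial genes Pecam1 and Kdr had a peak in ATAC5 alone and Cdh5 in none.

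A peak of the authors with at least 1 base in the region was counted as a call. Of the 789 bidirectional promoters 718, 717, 686, 702, 714, 718 and 676 were called in ATAC1 to ATAC7. These shares were 91.0%, 90.9%, 86.9%, 89.0%, 90.5%, 91.0% and 85.7%, and the 95% Wilson intervals, which cover counting error only, ran from 83.1% to 87.9% in ATAC7 and from 88.8% to 92.8% in ATAC1. The shares over all protein-coding start sites were 45.3%, 45.8%, 40.4%, 40.7%, 48.3%, 47.1% and 38.9% in the same order. With all peaks counted the libraries thus differed little among the bidirectional promoters, and ATAC3 and ATAC7 were the lowest. With only peaks of at least 5-fold over Input they differed more. The shares then were 62.5% in ATAC7, 64.4% in ATAC3 and 70.5% in ATAC4, against 81.9% in ATAC2, 83.3% in ATAC1, 88.2% in ATAC5 and 88.8% in ATAC6.

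The other start sites were called in 41.8%, 42.5%, 36.9%, 37.0%, 45.2%, 43.8% and 35.3% of cases in ATAC1 to ATAC7. The bidirectional promoters lay above them by 48.9 percentage points on average (45.3 to 52.0 over the 7 libraries), and the difference had the same sign in 7 of 7 libraries. An exact two-sided sign-flip permutation test over the libraries gave p = 0.0156, the smallest value that 7 libraries allow, and 0.0156 after adjustment over the 6 tests made. The libraries share the Input, the peak caller and the annotation, so that the test covers the spread between libraries and not between genes.

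GC content and the class of comparison moved the size of this difference. The 1001 bases around the midpoint of a bidirectional promoter had a median GC content of 60.3% and those around other start sites one of 54.3%. With the other start sites weighted to the GC content of the bidirectional promoters, in classes of 5 points, the difference was 29.1 points (adjusted p = 0.0156, exact sign-flip permutation test). Windows that resemble CpG islands, with a GC content over 50% and a ratio of observed to expected CpG over 0.6, made up 84.0% of the bidirectional promoters and 42.1% of the other start sites. Between such windows alone, a comparison chosen after the data were seen, the difference was 16.9 points (unadjusted p = 0.0156, exact sign-flip permutation test), with 91.7% to 95.6% of the bidirectional promoters and 70.7% to 83.5% of the others called. That gap was at most 16.9 points in ATAC1, ATAC2, ATAC5 and ATAC6 and 19.6 to 21.5 points in ATAC3, ATAC4 and ATAC7, which have the shortest peak lists, and the part of the list length in it was not tested.

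Outside CpG-island-like sequence the classes stood further apart. The 126 bidirectional promoters of this kind were called in 54.0% (ATAC7) to 70.6% (ATAC6) of cases, against 9.64% (ATAC7) to 17.3% (ATAC5) of the 11498 other start sites without an island-like window.

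Promoters that share features with the bidirectional class lay between it and the lone start sites. The 410 pairs of coding genes that overlap at their 5′ ends, and so do not meet the rule, were called in 74.9% (ATAC7) to 83.7% (ATAC5) of cases. Coding genes with a noncoding gene starting on the opposite strand within 1000 bases and pointing away, 482 outside those pairs, were called in 69.5% (ATAC7) to 76.3% (ATAC5) of cases. The 17772 start sites with no gene start of any kind within 1000 bases were called in 32.5% (ATAC7) to 42.5% (ATAC5). Against all 486 other start sites with a divergent noncoding gene the bidirectional promoters were higher by 16.3 points on average in 7 of 7 libraries (adjusted p = 0.0188, exact sign-flip permutation test).

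**Figure D1:**
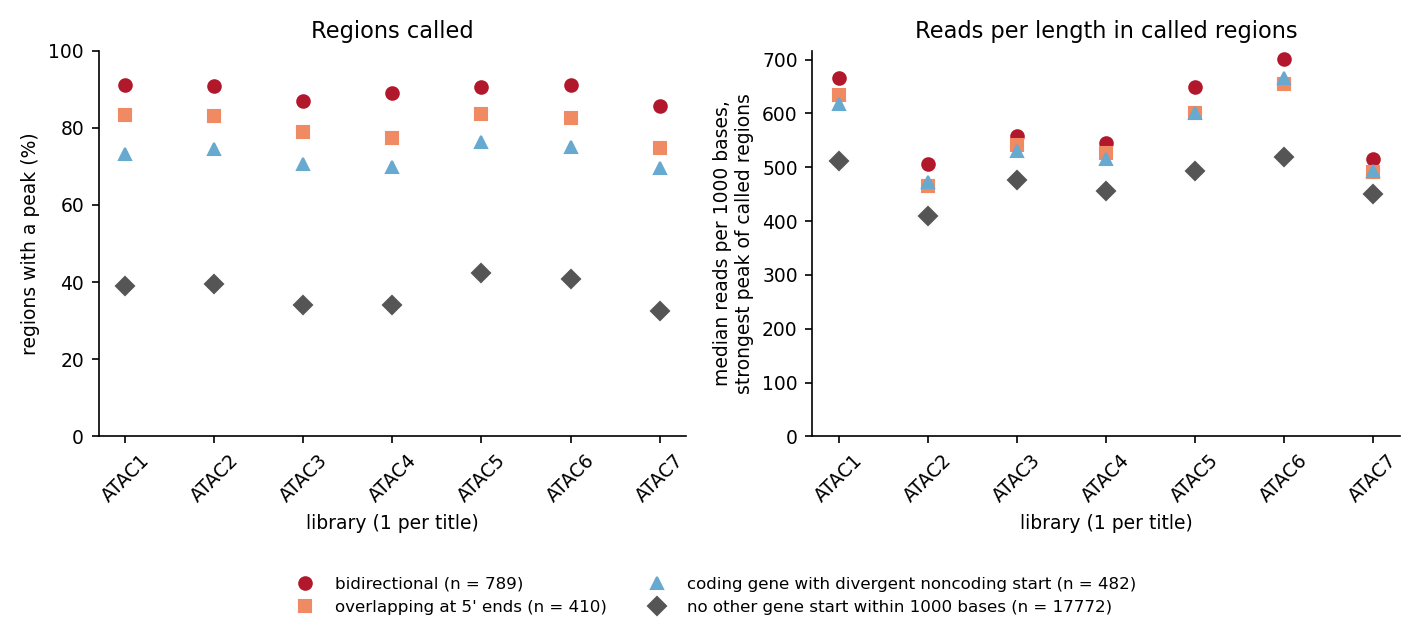
Share of regions with a peak (left, %) and median reads per 1000 bases in the strongest peak of the called regions (right) for 4 classes of start sites in each of the 7 libraries; each point is 1 library and has no replicate. The bidirectional promoters are the highest of the 4 classes in each library on the left, between 85.7% and 91.0%, and the start sites without a neighbour the lowest.

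The reads in the strongest peak of each called region were then compared, counted in the stretch from which the peak was cut. The median over called bidirectional promoters was 561, 366, 357.5, 351, 667, 729 and 305.5 reads in ATAC1 to ATAC7. The medians over the other called start sites were 350, 254, 254, 243, 414, 431 and 219. The bidirectional promoters were higher in each library, by 1.51-fold on average (log2 0.59, SD 0.11 over 7 libraries; adjusted p = 0.0156, exact sign-flip permutation test).

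Since longer stretches hold more reads, the reads were also divided by the length of the stretch. Per 1000 bases the medians of the bidirectional promoters ran from 506 (ATAC2) to 702 (ATAC6) and those of the other start sites from 417 (ATAC2) to 530 (ATAC6). The ratio per length was 1.22-fold on average (log2 0.29, SD 0.09; adjusted p = 0.0156, exact sign-flip permutation test), so that part of the difference in reads went with the longer stretches. Each peak also has a fold over Input in the deposited tables. The ratio of its medians was 1.22 on average (log2 0.29, SD 0.08; adjusted p = 0.0156, exact sign-flip permutation test), with medians of 6.53 (ATAC7) to 15.1 (ATAC5) for the bidirectional promoters and 5.63 (ATAC3) to 11.7 (ATAC5) for the others. Against start sites with a divergent noncoding gene the ratio of median reads was 0.15 on the log2 scale (adjusted p = 0.0312, exact sign-flip permutation test) and in ATAC2 the bidirectional median of 366 reads lay below theirs of 368. In the same comparison the log2 ratio was 0.08 per 1000 bases and 0.11 for the fold over Input (adjusted p = 0.0188 for each, exact sign-flip permutation test).

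More than 1 peak lay in the called region more often in bidirectional promoters. The share was 26.3%, 31.4%, 28.3%, 27.9%, 19.3%, 17.4% and 23.2% in ATAC1 to ATAC7, against 12.7% (ATAC5) to 19.8% (ATAC2) of the other called start sites. The difference was 8.28 points on average (SD 2.45; adjusted p = 0.0156, exact sign-flip permutation test), and it was 5.42 points (adjusted p = 0.0156, exact sign-flip permutation test) with regions cut to 1001 bases around the midpoint.

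The bidirectional promoters were few among the peaks but held many of the strongest. They took up 2.69% (ATAC5) to 5.85% (ATAC4) of all peaks of a library and 5.98% (ATAC2) to 8.86% (ATAC4) of all reads in peaks. Among the 1000 best-ranked peaks of a library 108 (ATAC6) to 130 (ATAC1) lay in a bidirectional promoter.

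Most bidirectional promoters were called in all libraries. A peak was present in all 7 libraries in 616 of the 789 (78.1%), and 48 (6.08%) had a peak in none. The same shares over all protein-coding start sites were 33.3% and 47.0%, and among the other start sites 5954 of 19856 (30.0%) had a peak in all 7 and 9957 (50.1%) in none. Of the regions with a peak in at least 1 library, 83.1% of the bidirectional promoters and 60.1% of the other start sites had one in all 7.

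**Figure D2:**
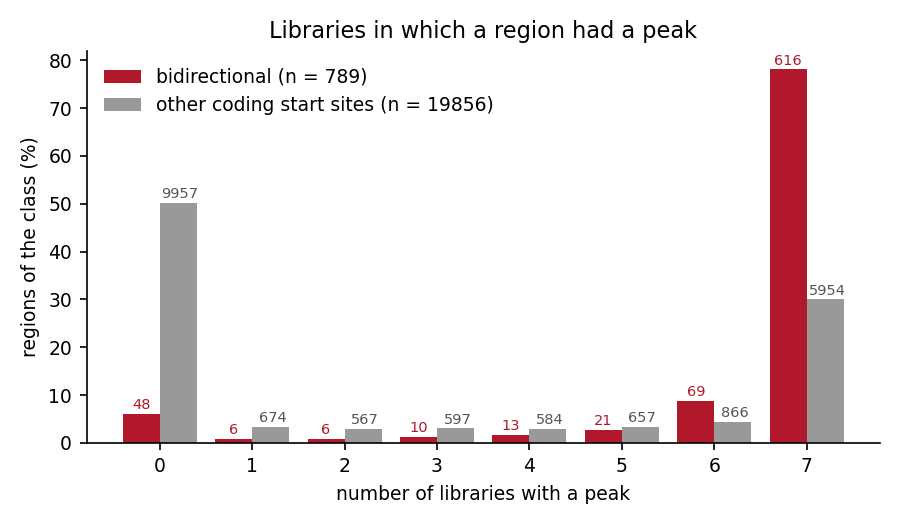
Number of libraries with a peak (0 to 7) against the share of regions (%), for the 789 bidirectional promoters and the 19856 other coding start sites; the counts stand above the bars. The bidirectional promoters pile up at 7 libraries (616 regions), while the largest bar of the other start sites is at 0 (9957 regions).

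The remaining 125 bidirectional promoters were called in 1 to 6 libraries, and 69 of these in 6. The library that lacked the peak was ATAC7 in 23 of the 69, ATAC3 in 16, ATAC5 in 11, ATAC2 in 7, ATAC6 in 6, ATAC4 in 4 and ATAC1 in 2. Of 866 other start sites called in 6 libraries 36.6% lacked ATAC7, against 33.3% of the 69, while 14.4% lacked ATAC3, against 23.2%, and 16.6% lacked ATAC4, against 5.80%. These differences were not tested. A missing call was not confined to weak regions, since 14 of the 69 had a mean over the called libraries of more than 2 times the median of called start sites. The 22 regions called in 1 to 3 libraries included 17 that were called in ATAC2, ATAC5 or ATAC6 and in no other library. That was 17 of 741 bidirectional promoters with a peak (2.29%), against 1189 of 9899 other start sites with one, and ATAC2, ATAC5 and ATAC6 had the 3 longest peak lists.

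The distance between the start sites went with both the calls and the reads. Pairs up to 300 bases apart were called in 92.1%, 92.0%, 87.9%, 90.2%, 92.6%, 92.6% and 86.7% of cases in ATAC1 to ATAC7, and pairs farther apart in 86.8%, 86.8%, 83.2%, 84.4%, 82.6%, 85.0% and 82.0%. The nearer pairs were higher by 6.15 points on average in 7 of 7 libraries (SD 1.96; adjusted p = 0.0156, exact sign-flip permutation test). With peaks of at least 5-fold over Input the mean difference was -1.19 points (adjusted p = 0.609, exact sign-flip permutation test). The nearer pairs were then still higher in ATAC1, ATAC5 and ATAC6 (89.9% and 82.0% in ATAC5) and lower in ATAC2, ATAC3, ATAC4 and ATAC7 (60.6% and 69.5% in ATAC7).

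Among classes of distance, pairs 201 to 300 bases apart had a peak in all 7 libraries most often, in 99 of 111 (89.2%), and pairs 501 to 1000 bases apart least often, in 53 of 81 (65.4%). The share did not fall steadily with distance. It was 74.1% in pairs at most 50 bases apart, 75.5% at 51 to 100 bases and 81.3% at 101 to 200 bases. Pairs 301 to 500 bases apart, at 77.9%, thus lay above the 2 nearest classes. The reads rose with distance over the nearer classes. Pairs at most 50 bases apart had median reads of 196 (ATAC7) to 453 (ATAC6), and pairs 201 to 300 bases apart had 389 (ATAC7) to 1001 (ATAC6). Per 1000 bases these were 396 (ATAC2) to 534 (ATAC6) and 591 (ATAC7) to 869 (ATAC6). Reads per length thus rose too, although pairs farther apart also have longer regions, whose part was not tested.

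**Figure D3:**
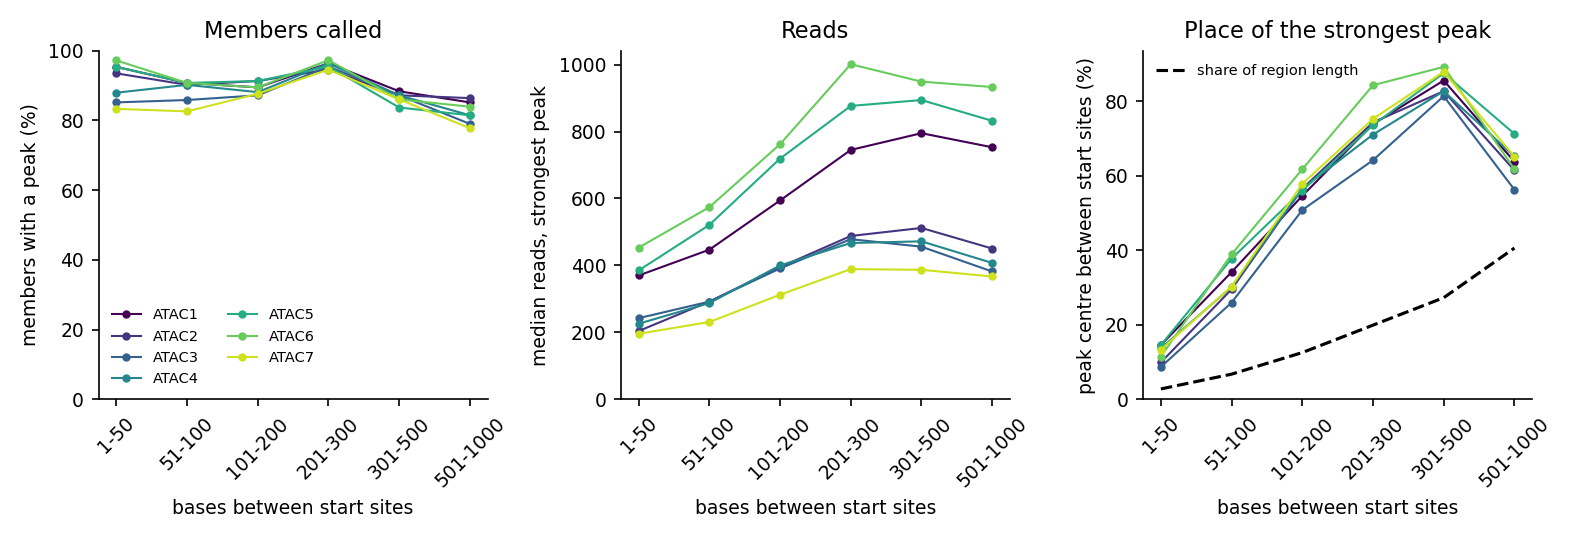
Bidirectional promoters by the distance between their start sites (bases, 6 classes of 81 to 219 pairs): share with a peak (left, %), median reads in the strongest peak (middle) and share of called regions whose strongest peak is centred between the start sites (right, %), with 1 line per library; the dashed line is the share of the region's length that lies between the start sites. Median reads rise in each library from the nearest pairs (196 to 453) to those 201 to 300 bases apart (389 to 1001). On the right the solid lines stay above the dashed line, which is not an expectation, since peak centres gather near start sites.

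The strongest peak was often centred on the stretch that the pair shares. It was centred between the start sites in 51.1%, 49.5%, 45.3%, 50.3%, 52.9%, 55.3% and 52.4% of the called regions of ATAC1 to ATAC7. The share depended on the room between the start sites. In pairs at most 50 bases apart it averaged 12.3% over the libraries, where the stretch between made up 2.79% of the region, and in pairs 301 to 500 bases apart it averaged 85.2%, where the stretch made up 27.3%. In the widest class, 501 to 1000 bases, it was 63.5% for 40.6% of the region. In these widest pairs 27.9% (ATAC6) to 51.5% (ATAC4) of the called regions held more than 1 peak. The shares of length are given for scale and are not an expectation for peak centres. At other start sites too the centres lay near the start, as given below.

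The median distance of the peak centre from the midpoint of the pair was 63.5 (ATAC6) to 91.5 (ATAC3) bases. For the other start sites the median distance of the centre from the start site was 94 (ATAC7) to 106 (ATAC2) bases. The peak itself covered both start sites of the pair in 118 (ATAC7) to 147 (ATAC2) regions.

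**Figure D4:**
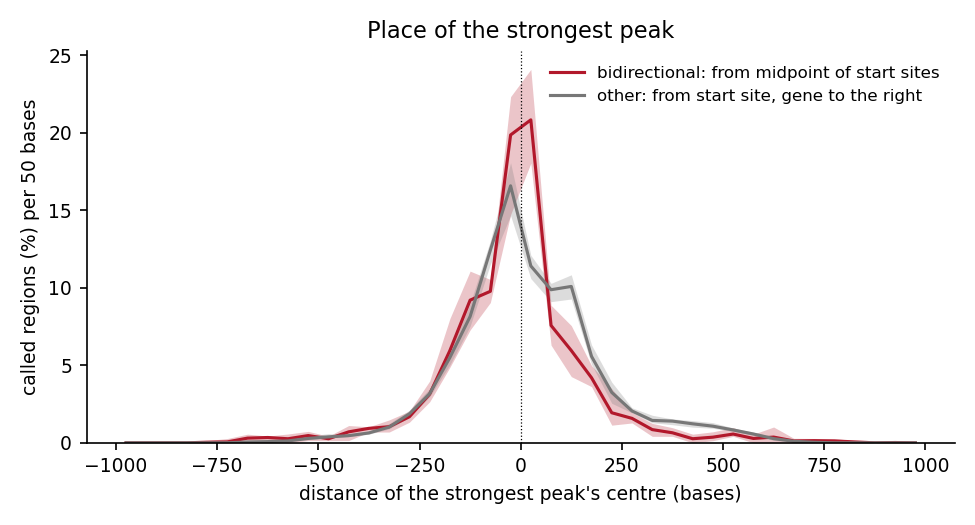
Place of the strongest peak's centre in 50-base steps, as the share of called regions (%), measured from the midpoint of the start sites for bidirectional promoters and from the start site, with the gene to the right, for other coding genes; lines are means over the 7 libraries and bands run from the lowest to the highest library. The bidirectional promoters form a narrow peak near 0, and the other start sites have a shoulder within the gene.

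Peak centres that fell outside the stretch lay more often on the side of lower coordinates, beyond the start site of the minus-strand gene. There were 181 (ATAC6) to 224 (ATAC3) such regions, against 122 (ATAC7) to 151 (ATAC2 and ATAC3) beyond the start site of the plus-strand gene. The other start sites showed the same side on both strands: the centre lay at lower coordinates than the start site by a median of 10 to 24 bases for genes on the plus strand and of 3 to 28 bases for genes on the minus strand. In the bidirectional regions the side and the strand cannot be told apart. Among the 616 regions with a peak in all 7 libraries the strongest peak was centred between the start sites in all 7 in 136 (22.1%), and beyond opposite start sites in different libraries in 110 (17.9%). The centre ranged over a median of 160.5 bases between libraries.

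The sequence of the bidirectional promoters was searched for 10 motifs by their letters, on both strands, in 1001 bases around the midpoint and, for other genes, around the start site. The ETS motif CCGGAAG, to which GABPA binds, was found in 330 of the 789 bidirectional promoters (41.8%) and in 17.5% of the other start sites. The NRF1 motif CGCATGCG was found in 8.62% and 2.86%, and the YY1 motif AAGATGGC in 14.4% and 7.36%. The Sp1 motif GGGCGG was found in 89.0% and 58.3%, and the TATA box motif TATAAA in 14.3% and 33.4%. The remaining letters searched were CCAAT for NF-Y, TGACGTCA for the CRE, CACGTG for the E-box, TGANTCA for AP-1 and ACTACAA for ZNF143. No motif's letters hold those of another, although neighbouring matches can share bases, and a match is a description and not a site.

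The ETS letters were more frequent than in other CpG-island-like start sites, and the Sp1 letters less frequent. In the 300 bases around the midpoint, CCGGAAG stood in 28.6% of the bidirectional promoters, in 10.3% of the other start sites, in 18.1% of the others that are CpG-island-like and in 22.3% of the others with a peak in all 7 libraries. GGGCGG stood in 66.8%, 44.5%, 76.9% and 76.6%. The CCAAT letters stood in 42.6%, 35.0%, 32.2% and 37.6%. In 1001 bases the NF-Y letters were found in 68.1% of the bidirectional promoters, in 70.3% of the other start sites, and in 63.1% of the CpG-island-like others. The share of the others with a peak in all 7 libraries lay between 63.1% and 68.1%.

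Within the bidirectional class the ETS letters went with more calls and fewer reads. Of the 226 regions with CCGGAAG in the central 300 bases 84.1% had a peak in all 7 libraries, against 75.7% of the 563 regions without. The called share was higher with the motif in each library, for example 96.9% and 88.6% in ATAC1 and 89.4% and 84.2% in ATAC7. The median reads in the strongest peak were lower with the motif in each library, for example 485 and 596 in ATAC1 and 275.5 and 317.5 in ATAC7. Per 1000 bases they were lower too, at 656 and 676 in ATAC1 and 502 and 530 in ATAC7. A higher share called in all 7 libraries was not particular to the ETS letters. It was 93.2% with and 77.2% without the ZNF143 letters, 91.1% and 77.3% for NRF1, and 88.9% and 77.1% for YY1. Sp1 (81.8% and 70.6%), NF-Y, CRE and E-box letters also went with a higher share. AP-1 (60.7% and 78.7%) and the TATA box (65.8% and 78.7%) went with a lower one. These shares and medians were not tested.

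The share of genes in a bidirectional promoter differed between functional groups. Of 111 DNA repair genes found in the annotation, 33 (29.7%) belonged to a bidirectional promoter, against 7.29% of all protein-coding genes. Replication-dependent histones, whose genes lie in head-to-head pairs, had the highest share with 27 of 67 (40.3%). The members were 11 of 41 subunits and assembly factors of NADH dehydrogenase (26.8%), 16 of 77 mitochondrial ribosomal proteins (20.8%), 10 of 52 DNA replication genes (19.2%) and 7 of 38 tRNA synthetases (18.4%). Nearer to the share of all genes were cytosolic ribosomal proteins with 8 of 79 (10.1%), proteasome subunits with 4 of 40, genes named Tmem with 21 of 211 (9.95%) and zinc finger genes named Zfp with 19 of 362 (5.25%). Collagens had 2 of 41 and Hox genes 1 of 40. None of 1106 olfactory receptor genes was a member. Of the marker lists, 0 of 18 haematopoietic, 0 of 21 stromal and 1 of 20 endothelial genes were members.

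Of the 34 regions with a DNA repair gene 31 had a peak in all 7 libraries and each of them had a peak in at least 2. All 10 regions of DNA replication genes and all 7 of tRNA synthetases had a peak in all 7 libraries, as did 11 of 16 with a mitochondrial ribosomal protein, 10 of 11 of NADH dehydrogenase and 10 of 14 histone regions. Of the other groups with several regions, 5 of 8 with a cytosolic ribosomal protein had a peak in all 7 libraries and 1 in none, and the counts in all 7 were 4 of 4 for proteasome subunits, 15 of 17 for Zfp genes and 18 of 21 for Tmem genes. The share over all bidirectional promoters was 78.1%. The same share over the start sites of all genes of a group, members included, was 92.1% for tRNA synthetases and 86.1% for cytosolic ribosomal proteins. It was 82.5% for proteasome subunits, 76.6% for DNA repair, 73.2% for NADH dehydrogenase and 69.2% for DNA replication. For mitochondrial ribosomal proteins it was 61.0%, for histones 53.7%, for Zfp genes 45.6% and for Tmem genes 39.8%. Differences between these shares and the counts were not tested.

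Among the DNA repair regions with many reads was Gen1/Smc6, the pair of a Holliday junction resolvase and a subunit of the SMC5/6 complex. Its strongest peak held 1427, 1169, 937, 846, 1701, 1795 and 874 reads in ATAC1 to ATAC7. Mcm4/Prkdc, the pair of a subunit of the replicative helicase and the catalytic subunit of DNA-dependent protein kinase, held 1508, 1094, 886, 860, 1522, 1506 and 791. Both lay far above the median of called start sites, which was 231 (ATAC7) to 469 (ATAC6) reads, in each library.

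The DNA repair regions with calls in fewest libraries were Poll/Dpcd, Tmem111/Fancd2 and Rad54l/Pomgnt1. Poll, which codes for DNA polymerase lambda, had 137 reads in ATAC5 and 75 in the stronger of 2 peaks in ATAC6, where both peaks summed to 135, and no peak elsewhere. Fancd2, a central protein of the Fanconi anaemia pathway, had 86 reads in ATAC1, 95 in ATAC2, 159 in ATAC5 and 189 in ATAC6. Rad54l, a translocase of homologous recombination, had 54, 93, 102, 127 and 141 reads in ATAC1, ATAC2, ATAC4, ATAC5 and ATAC6. All these values were below the median of the called start sites of their library, and none of the 3 was called in ATAC3 or ATAC7.

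Of 18 pairs known from textbooks 8 met the rule, 8 overlapped at their 5′ ends and 2 were not head to head within 1000 bases in this annotation. The 7 pairs with peaks had one in all 7 libraries. Pdcd10/Serpini1, with start sites 691 bases apart (region chr3:75360278-75361969), codes for a cerebral cavernous malformation protein and neuroserpin, and held 2801, 2433, 1564, 1412, 3200, 3185 and 1494 reads in ATAC1 to ATAC7. Atm/Npat, 307 bases apart (region chr9:53344345-53345652), codes for a DNA damage kinase and an activator of histone genes and held 1259, 717, 729, 750, 1304, 1349 and 793. Gart/Son, 554 bases apart (region chr16:91646697-91648251), codes for a purine synthesis enzyme and a splicing factor, held 759, 503, 567, 459, 742, 958 and 319 reads, and had 2 or 3 peaks in each library.

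Brca1/Nbr1, whose stretch of 193 bases is printed above with 1 NF-Y match, codes for a homologous recombination protein and an autophagy receptor. It held 512, 380, 506, 334, 1338, 1675 and 370 reads in the strongest peak, with the highest counts in ATAC5 and ATAC6. That peak lay within the printed stretch in ATAC1, across the start site of Nbr1 in ATAC4, and inside Nbr1 at the far edge of the region in the other 5 libraries, so that the counts are not of the same place. Per 1000 bases the values were 776, 576, 761, 551, 884, 1008 and 566, and the range over libraries fell from 1.49 on the log2 scale of reads relative to the library median to 0.66 per length. ATAC5 and ATAC6 had 1 peak there, and the other libraries 1 to 3. With all peaks summed ATAC3 held 866 reads in 2 peaks, which is more than ATAC5 relative to the library medians of 271 and 446.

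Mrps12/Sars2, with 4 NF-Y matches and 1 Sp1 match in 170 bases, codes for a protein of the mitochondrial ribosome and the mitochondrial seryl-tRNA synthetase. It held 524, 359, 374, 241, 769, 554 and 181 reads in ATAC1 to ATAC7. Wrap53/Trp53, the pair of a telomerase cofactor and the tumour suppressor p53, was the weakest of the 7, with 229, 96, 141, 116, 113, 215 and 95 reads, all below the median of called start sites of the library. Its GC content of 51.4% over 1001 bases was below the median of the class.

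Col4a4/Col4a3, which codes for type IV collagen chains of specialised basement membranes such as that of the kidney glomerulus, was the textbook pair without a peak. The nearest peak of any library lay 103731 bases away.

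Among regions with a peak in all 7 libraries the highest reads, by the mean over libraries of the log2 ratio to the median of called start sites, were found in Srgap2/Fam72a, Cdca2/Kctd9, Pdcd10/Serpini1, Aasdhppt/Kbtbd3 and Hjurp/Trpm8. Srgap2 and Fam72a start 542 bases apart (region chr1:133423438-133424980, mm9), and their promoter held 2910, 1915, 1728, 1852, 3299, 3087 and 1673 reads. Cdca2/Kctd9 is only 96 bases apart, has none of the 10 motifs between its start sites, and held 2725, 1812, 1764, 1700, 3273, 3185 and 1558. The ratio to the library median differed little between libraries in both, with a range of 0.26 and 0.18 on the log2 scale.

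Per length the order changed. Hjurp/Trpm8, the pair of a centromere histone chaperone and a cold-sensing ion channel with start sites 28 bases apart (region chr1:90173708-90174736), was the highest of these 5 with a mean log2 ratio of 2.02 to the median reads per 1000 bases, against 1.58 for Cdca2/Kctd9, 1.37 for Pdcd10/Serpini1, 1.30 for Aasdhppt/Kbtbd3 and 1.26 for Srgap2/Fam72a. The Hjurp/Trpm8 peak held 1555, 1922, 1975, 1649, 2541, 2759 and 1997 reads per 1000 bases in ATAC1 to ATAC7, so that ATAC5 and ATAC6 were the highest. It also had the most Input reads of the 5, 152 to 210, and the lowest fold over Input of the 5 in each library, for example 10.9 against 22.9 to 32.7 in ATAC1.

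The lowest reads among regions with a peak in all 7 libraries were found in H2-T22/Gm6034, Eif3i/2510006D16Rik, Eif2b1/Gtf2h3, 1700088E04Rik/Polr2f and Zfp661/Mrps5. H2-T22, a non-classical MHC class I gene with near copies in the genome, held 150, 71, 62, 52, 186, 125 and 57 reads in ATAC1 to ATAC7, yet its fold over Input was 10.4 to 28.1, with 5 to 12 Input reads. How reads that match several copies were treated is not given in the sources used here, so these counts are uncertain. Eif3i, a subunit of a translation initiation factor, held 168, 87, 79, 65, 167, 142 and 59 reads at 2.04-fold to 4.54-fold over Input. The range from 52 to 186 reads in H2-T22/Gm6034 and from 1673 to 3299 in Srgap2/Fam72a shows how far the bidirectional promoters differed among themselves.

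**Figure D5:**
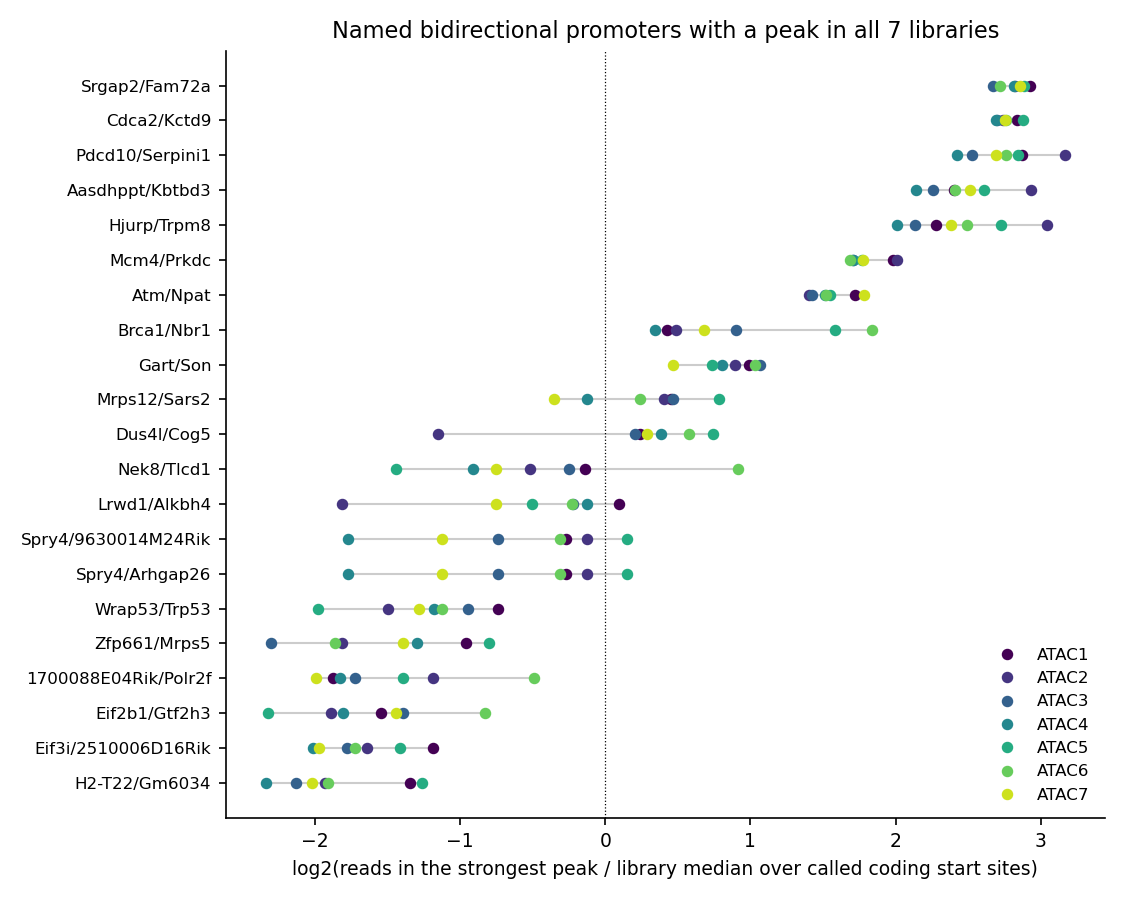
Log2 of the reads in the strongest peak over the library's median of called coding start sites (x axis) for the textbook pairs and the pairs with the highest, lowest and most variable reads that had a peak in all 7 libraries (rows, ordered by their mean); each point is 1 library and grey lines join the lowest and highest. Srgap2/Fam72a and Cdca2/Kctd9 lie within 0.26 and 0.18 of a log2 unit, while Nek8/Tlcd1 spreads over 2.36.

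Reads varied somewhat less between libraries in bidirectional promoters than in other start sites with a peak in all 7. The median range of the log2 ratio to the library median was 0.78 over the 616 bidirectional promoters and 0.88 over the 5954 others, and it was at most 1 in 68.3% and 60.6% of them. The bidirectional promoters also held more reads, with a median of the mean log2 ratio of 0.56 against 0.19. The part of the read level, and of how regions are divided into peaks, was not tested.

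Among regions with a peak in all 7 libraries the largest ranges were those of Nek8/Tlcd1, of Spry4 with Arhgap26 and with 9630014M24Rik, which share their start sites, of Lrwd1/Alkbh4 and of Dus4l/Cog5. Nek8, a kinase of the primary cilium, and Tlcd1 held 346, 189, 228, 140, 164, 886 and 137 reads, with ATAC6 far above the rest. ATAC6 had 1 peak there and the other libraries 3 or 4. With the reads of all peaks of the region summed, the range fell from 2.36 to 1.08, and per 1000 bases it was 1.09. The high value of ATAC6 thus went with how the region was divided into peaks.

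Spry4, an inhibitor of receptor tyrosine kinase signalling, and Arhgap26 held 317, 248, 162, 77, 494, 378 and 106 reads at 1 peak in each library, and ATAC4 and ATAC7 were the lowest. Per 1000 bases their range was 0.61. Lrwd1/Alkbh4 held 407, 77, 232, 241, 314, 401 and 137 reads and Dus4l/Cog5 held 452, 122, 313, 344, 746, 699 and 282, with ATAC2 lowest in both. With the reads of all peaks summed, the range of Lrwd1/Alkbh4 rose from 1.91 to 2.66, with 471 reads in 2 peaks in ATAC4, and that of Dus4l/Cog5 stayed at 1.89. Per 1000 bases their ranges were 0.61 and 0.90.

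Of the 6 bidirectional promoters called in exactly 1 library 4 were called in ATAC2 and 2 in ATAC5. The best-ranked in ATAC5 was Pecam1/Gm885. Pecam1 codes for CD31, one of the antigens that the sort excluded, and its region held 2 peaks with 76 and 56 reads in ATAC5, while the nearest peak of the other libraries lay 7458 (ATAC1) to 27861 (ATAC4) bases from the region. Both values were below the ATAC5 median of 446 for called start sites, and of the endothelial genes named above Kdr also had a peak in ATAC5 alone and Cdh5 in no library. Their part in the call was not tested.

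The best-ranked in ATAC2 was Psme2/Rnf31, the pair of a proteasome activator subunit and a ubiquitin ligase. Its region (chr14:56209450-56211045) held 890 reads in ATAC2 at 15.6-fold over Input, far above the ATAC2 median of 271, and no peak was listed in the other 6 libraries within 4304 bases of the region. Of the 6 regions called once only 2 lay above the median of called start sites. The other was Ddx5/Ccdc45, named after its values were seen, where ATAC2 had 859 reads and the ATAC5 list had a peak of 2332 reads that ended 34 bases outside the region.

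The 48 bidirectional promoters without a peak in any library differed in sequence from those with a peak in all 7. Their median GC content was 54.9%, their median ratio of observed to expected CpG was 0.41 and 15 were CpG-island-like, against 60.6%, 0.79 and 560 of 616 for those with a peak in all 7 libraries. The other start sites showed the same contrast. Those with a peak in none had medians of 47.6% and 0.22, and 9.23% were CpG-island-like. For other start sites with a peak in all 7 the values were 60.4%, 0.78 and 86.7%. The CCGGAAG letters stood in the central 300 bases of 4 of the 48 bidirectional promoters without a peak. From these 48 the nearest peak of any library lay a median of 24741 bases away, and over 10000 bases away in 31 of the 48.

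The 5 of them with the nearest start sites were Best1/Rab3il1 (36 bases apart), Dusp3/1700006E09Rik (43), Sec24a/Sar1b (53), Dgcr2/Tssk1 (58) and Rnf151/Rps2 (59). Best1 codes for a chloride channel of the retinal pigment epithelium and Tssk1 for a kinase of the testis, whereas Sec24a and Sar1b code for parts of the COPII coat of transport vesicles and Rps2 for a protein of the cytosolic ribosome. The nearest peaks lay 8169, 2169, 7031, 2310 and 1519 bases away. Rnf151/Rps2, Dusp3/1700006E09Rik and Dgcr2/Tssk1 thus had a peak within a few kilobases, outside the region that the outermost annotated start sites give.

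In 6 of the 48 regions at least 50% of the 36-base words of the 1001-base window occurred in another bidirectional promoter. These were 2 pairs of replication-dependent histone genes and 4 pairs of predicted or testis genes, among them Hist1h2bq/Hist1h2ao and Hist1h2ap/Hist1h2br. Of all 789 regions 45 shared as many words with another, and 37 of the 45 had a peak in all 7 libraries.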

How the data were processed

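The members, lists and tests were chosen with earlier results of these data known. The authors aligned ATAC-seq reads of 7 libraries to mm9 with Bowtie and called peaks for each library against Input with CisGenome (p limit 1e-05, FDR under 0.01). The submitters' notes also name DiffBind and bedtools. How duplicates and reads with several matches were treated is not given in the sources used here. The deposited peak tables hold whole-number counts of library and Input reads in an outer stretch around each peak, a fold over Input (the authors' ratio of scaled counts, with 0.01 added to Input) and a ranking signal made by the authors' caller. Their columns have no header and were identified from the values. No p-value per peak was used. Total depth is unknown, and a region without a peak has no count.

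Regions were formed from GENCODE vM1 genes on chromosomes 1 to 19 in Python 3.11.15 (numpy 2.4.6, pandas 2.3.3, scipy 1.17.1), and sequences were read from the NCBIM37 genome, which is mm9. A region was called with 1 base of a peak, and the peak with most reads stood for it. Peaks with 0 Input reads were left out of fold medians. Class differences within a library were tested over the 7 libraries by exact two-sided sign-flip permutation tests with Benjamini-Hochberg adjustment over 6 tests. The code was tested on simulated peaks. Named pairs were 18 textbook pairs where they met the rule; the 5 highest, 5 lowest and 5 most variable of those with a peak in all 7 libraries; the best-ranked member called in a single library; the 5 nearest pairs without a peak; and up to 6 DNA repair or marker pairs. Comparisons of CpG-island-like windows, GC weights joined with lone start sites or midpoint regions, genes of status KNOWN, and starts of any transcript were added after the data were seen. Some named genes are not reported here.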

Additional observations from a re-analysis of the deposited data

How the results depend on the processing

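No paired analysis was possible because a single library stands behind every title and no replicate numbers are given. Under the other settings 165 values kept their direction and their side of the threshold, or, where they have no test, moved by less than their spread or, for counts, by less than 1.5 times, while 7 moved further and 2 reversed. With peaks of at least 5-fold the regions with a peak in all 7 libraries fell from 616 to 421 and those with none rose from 48 to 62. The difference between nearer and farther pairs became -1.19 points with peaks of at least 5-fold. The NF-Y difference between bidirectional and other start sites turned from -2.27 to 7.62 points in windows of 300 bases. In these windows the difference in motif share also moved to 18.4 points for ETS, 3.80 for NRF1, 22.3 for Sp1, 4.47 for YY1, -2.68 for AP-1 and -6.55 for the TATA box, as fewer bases were searched. With pairs that overlap at their 5′ ends included, 89 regions in place of 48 had no peak, because more regions entered. Leaving out each library in turn kept the difference in called share between 48.4 and 49.5 points. With GC weights and lone start sites it was 30.6 points, with GC weights and midpoint regions 28.4, and with the start of any transcript of the other genes 45.4. Calls are limited by the depth of a library, and a region without a peak was not detected at that depth, which does not show closed chromatin.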
